A study of Homo sapiens with 8 samples.

Results

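The genes described here are 10 factors and targets of the Hippo pathway, taken from the count table by symbol: YAP1, WWTR1, TEAD1, LATS1, LATS2, PTPN14, AMOTL2, CTGF, CYR61 and ANKRD1. All 10 were found among the 15982 genes of the table, and all 10 were among the 15905 genes that had enough reads to be tested. The cells were 143BTK-, a human osteosarcoma line without functional thymidine kinase. Every culture was kept in glucose-free DMEM with 10 mM galactose, dialysed fetal calf serum and uridine, and received 80 pmol of a mirVana mimic with Lipofectamine RNAiMAX at the start and once more at 48 h. The miR-101 group (4 libraries) received the hsa-miR-101-3p mimic and the negative control group (4 libraries) received the mimic Negative Control #1, and all were harvested at 120 h. The labels describe 4 independent transfections of this 1 line. RNA was measured in bulk, so fewer cells with a transcript and less of it per cell cannot be told apart.

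The Hippo pathway is a kinase cascade known for limiting cell growth in response to cell density, cell shape and the mechanics of the surroundings. When it is active, the kinases LATS1 and LATS2 phosphorylate the coactivators YAP1 and TAZ (the product of WWTR1), which are then held in the cytoplasm or degraded. When it is inactive, YAP1 and TAZ enter the nucleus and bind TEAD factors such as TEAD1, which recognise the DNA word CATTCC and switch on genes such as CTGF, CYR61 and ANKRD1. Much of this control acts on the proteins, and the values here are of RNA only.

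Because the mimic acts by pairing of its seed (bases 2 to 8) with transcripts, the sequence is shown with each seed site of 7 or 8 bases in the longest 3' UTR of the 10 genes. The mature sequence is from RefSeq (GRCh38.p14), with the seed in capitals.
hsa-miR-101-3p: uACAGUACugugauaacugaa
A full match of the seed in an mRNA reads GTACTGT (7mer-m8), GTACTGTA is an 8mer, and TACTGTA (a 7mer-A1) pairs with all of the seed but its last base and adds an A. In GENCODE 29 (GRCh38) 3 of the 10 genes held such a site, shown with the match in capitals.
YAP1, 7mer-m8: gtgttgtagcaGTACTGTgatacctggca
TEAD1, 7mer-m8: ttaaggtttcaGTACTGTggtggctttag
WWTR1, 7mer-A1: tagtaaaattcTACTGTAtggaatacaat
WWTR1, 7mer-A1: ctcagcagtgtTACTGTAtttttaaaaaa
The YAP1 site lies at chr11:102232493-102232499 (plus strand), the TEAD1 site at chr11:12941458-12941464 (plus strand), and the WWTR1 sites at chr3:149520271-149520277 and chr3:149518406-149518412 (minus strand). No 8mer was found in any of the 10 genes, and the 3' UTRs of LATS1, LATS2, PTPN14, AMOTL2, CTGF, CYR61 and ANKRD1 held no site of the 3 classes. Shorter seed matches (6mer), not printed here, numbered 3 each in PTPN14 and TEAD1, 2 each in LATS1, LATS2 and YAP1, and 1 in AMOTL2. Of the 12186 tested genes with an annotated 3' UTR, 23.9% held a site of the 3 classes. Each gene was counted only under its strongest site (8mer, then 7mer-m8, then 7mer-A1). The median log2 fold change was -0.26 for the 560 genes with an 8mer and -0.10 for 997 with a 7mer-m8. It was 0.00 for 1350 with a 7mer-A1, against -0.01 for 9279 with none. A match is a description of the letters and does not show that the site is used.

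With the miR-101 mimic YAP1 rose 1.69-fold and PTPN14 fell 1.62-fold. The other 8 genes were not called in the fit of all 8 libraries. WWTR1 and CTGF had mean levels about as far below the control, by 1.88-fold and 1.95-fold, but with a wider spread between replicates. TEAD1, LATS1 and LATS2 lay within 1.04-fold of the control. A gene was called where edgeR's quasi-likelihood F test, adjusted over all tested genes, gave a p under 0.05, which was the case for 6.62% of them, 3.3% higher and 3.32% lower. Levels are CPM, counts scaled to a common TMM-adjusted library size. A log2 fold change above 0 means more RNA with miR-101, and its error is a standard error. With the replicate number as a block, which compares cultures of the same number, CTGF was also called lower, so that 3 genes were called against 10.5% of all genes. DESeq2 called YAP1, PTPN14 and WWTR1 against 10.7% of all genes. The median log2 fold change of the 10 genes was -0.04 and that of all tested genes -0.01.

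**Figure D1:**
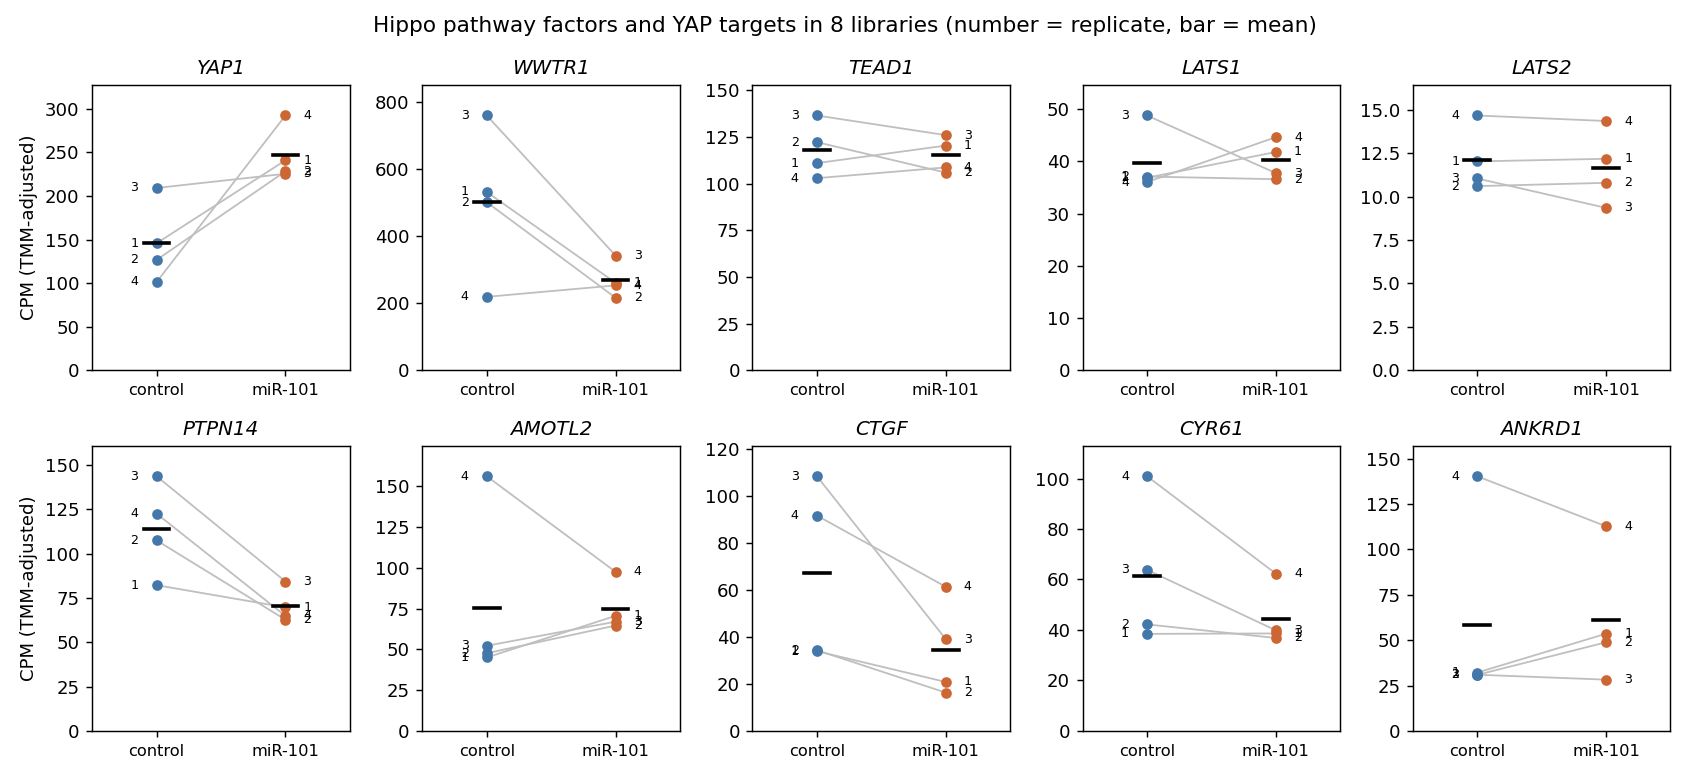
Level of each of the 10 genes (y axis, CPM, from 0) in the 4 negative control libraries (blue) and the 4 miR-101 libraries (orange). Numbers name the replicate, grey lines join libraries of the same number and black bars are group means. YAP1 is the 1 gene whose groups do not overlap, and control replicate 4 stands far above the other controls for AMOTL2 and ANKRD1.

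YAP1 (chr11:102110461-102233423), the coactivator that the pathway restrains, stood at 241, 228, 225 and 292 CPM in miR-101 replicates 1 to 4. In the negative control replicates 1 to 4 it stood at 146, 127, 209 and 101.2 CPM. The lowest miR-101 library lay above the highest control library, as was the case for 7.76% of all tested genes (15.1% had groups that did not overlap in either direction). The means were 246.7 ± 31.1 and 145.7 ± 46.1 CPM (SD, n = 4 each). On the log2 scale YAP1 was higher by 0.76 ± 0.196 (edgeR adjusted p = 0.0435). YAP1 was higher in 4 of 4 same-numbered pairs, by 0.11 (pair 3) to 1.53 (pair 4) on the log2 scale. Its difference in replicates 1 and 2 (0.78) was close to that in replicates 3 and 4 (0.74), with edgeR adjusted p of 3.87e-15 and 0.67. Replicates 1 and 2 lay closest together within both groups, and their fit alone called 5126 genes, against 6 for replicates 3 and 4. The small p-values of that fit, here and below, rest on 2 very similar cultures per group. The call was lost when any 1 library other than control replicate 3 was left out (edgeR adjusted p from 0.051 to 0.122), and with replicates 1 and 2 summed (0.214). The 3' UTR of YAP1 holds the 7mer-m8 site printed above. About 9.97% of its exon length is shared with the annotated gene AP000942.2 on the other strand.

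WWTR1 (chr3:149517235-149736714), which encodes the YAP1 paralog TAZ, moved the other way in most libraries. It stood at 260.0, 216, 341 and 253 CPM in miR-101 replicates 1 to 4 and at 531, 500.3, 758 and 219 CPM in the control replicates. Controls 1 to 3 lay above every miR-101 library, and control replicate 4 lay below all but the lowest of them. The log2 fold change was -0.91 ± 0.299 (edgeR adjusted p = 0.10), so WWTR1 was not called. Without control replicate 4 it was called lower, at -1.16 (edgeR adjusted p = 0.00463). DESeq2 called it on all 8 libraries (adjusted p = 0.0276). Replicates 1 and 2 alone gave -1.12 (edgeR adjusted p = 6.08e-24) and replicates 3 and 4 alone -0.72 (0.819), and WWTR1 was lower in 3 of 4 pairs. The antisense gene WWTR1-AS1, which shares 9.45% of the exon length of WWTR1, had a mean of 0.999 CPM in miR-101 libraries and 0.759 CPM in control libraries.

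The 2 paralogs can be compared within a library, per kilobase of exon (6.30 kb for YAP1, 8.41 kb for WWTR1), where scaling between libraries has no part. The ratio of WWTR1 to YAP1 was 2.73, 2.96, 2.71 and 1.61 in control replicates 1 to 4 and 0.808, 0.707, 1.13 and 0.647 in miR-101 replicates 1 to 4. Per kilobase WWTR1 was thus ahead in 4 of 4 control libraries and YAP1 in 3 of 4 miR-101 libraries, and the groups did not overlap. The lengths join all annotated exons of a gene, so which gene leads depends on them, while the fold difference between groups does not. By read counts alone WWTR1 was ahead in miR-101 replicates 1 (4846 against 4489) and 3 (6971 against 4605), and YAP1 in replicates 2 and 4. The mean ratio was 2.50 ± 0.603 in the control and 0.824 ± 0.217 with miR-101 (SD, n = 4 each). The summed level of both genes was 82.8 ± 33.3 CPM per kb in the control and 71.0 ± 6.95 with miR-101, and here the groups overlapped. The ratio was chosen after the values of both genes were seen and is given without a test.

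**Figure D2:**
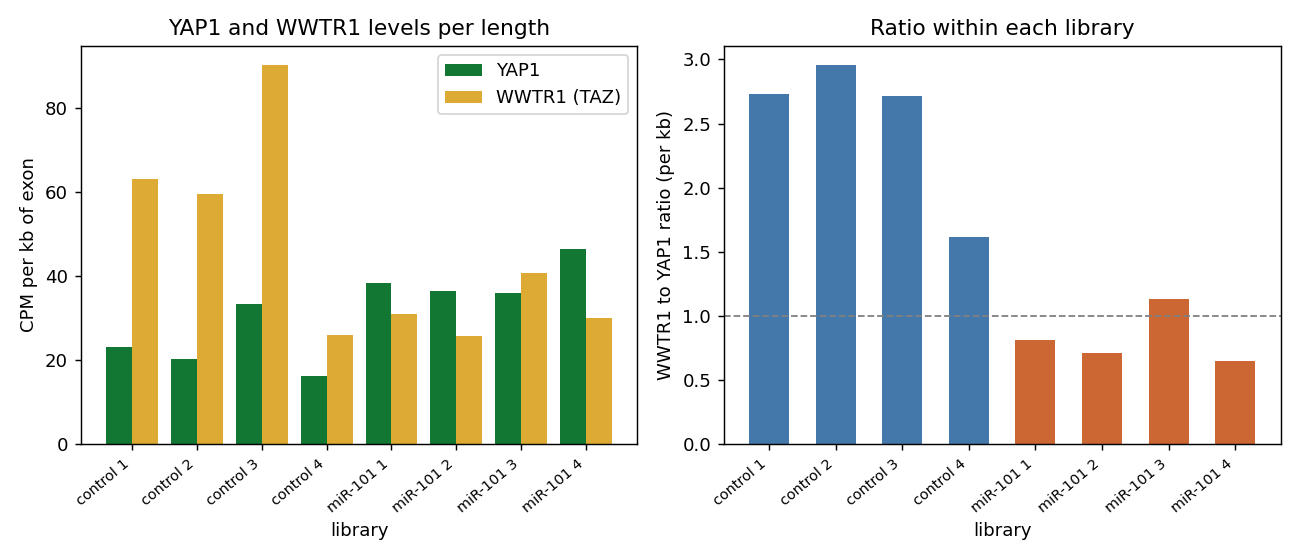
Left, levels of YAP1 (green) and WWTR1 (yellow) in CPM per kilobase of exon in each library. Right, the ratio of WWTR1 to YAP1 per kilobase, with a dashed line at 1. The 4 control libraries lie between 1.61 and 2.96 and the 4 miR-101 libraries between 0.647 and 1.13.

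TEAD1 (chr11:12674591-12944483), the DNA-binding partner of YAP1 and TAZ, varied little between the libraries. It ran from 106 to 126 CPM in miR-101 libraries and from 103 to 136 CPM in control libraries (log2 fold change -0.04 ± 0.113, edgeR adjusted p = 0.89). The range of the miR-101 libraries lay within that of the control libraries. TEAD1 holds the 7mer-m8 site printed above, and whether that site is used was not tested. The kinase LATS1 (chr6:149658153-149718256) ran from 36.6 to 44.6 CPM in miR-101 libraries and from 36.0 to 48.8 CPM in the control (0.02 ± 0.126, edgeR adjusted p = 0.952). Its paralog LATS2 (chr13:20973032-21061547), which is itself a described YAP target, ran from 9.35 to 14.4 and from 10.6 to 14.7 CPM (-0.05 ± 0.166, edgeR adjusted p = 0.888). Each of these 3 genes was higher in 2 and lower in 2 of the 4 pairs. With their standard errors, small changes in either direction were not detectable at this replication.

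PTPN14 (chr1:214348696-214552449) encodes a phosphatase that binds YAP1 and restrains it, and is also a described YAP target. It stood at 69.7, 62.8, 84.3 and 64.9 CPM in miR-101 replicates 1 to 4 and at 82.2, 107.5, 144 and 123 CPM in the control replicates. The groups overlapped only through miR-101 replicate 3 and control replicate 1, and all 4 pairs were lower with miR-101. The log2 fold change was -0.69 ± 0.166 (edgeR adjusted p = 0.0319). Replicates 1 and 2 alone gave -0.53 (edgeR adjusted p = 2.92e-07), and replicates 3 and 4 alone gave -0.83 (0.347). Leaving out miR-101 replicate 1, 2 or 4, or control replicate 2 or 3, ended the call (edgeR adjusted p from 0.0507 to 0.105), as did the fit with replicates 1 and 2 summed (0.102). The longest 3' UTR of PTPN14, of 9226 bases, held no site of the 3 classes but 3 shorter 6mer matches. Whether pairing with the mimic has a part in the fall was not tested.

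AMOTL2 (chr3:134355874-134375479), an angiomotin family scaffold that binds YAP1 at cell junctions and is a described YAP target, stood at 70.6, 64.6, 67.0 and 97.5 CPM in miR-101 replicates 1 to 4. In the control replicates it stood at 45.0, 47.6, 52.2 and 156 CPM. Controls 1 to 3 lay below every miR-101 library and control replicate 4 above all of them. Over the 8 libraries the log2 fold change was -0.01 ± 0.366 (edgeR adjusted p = 0.993). Without control replicate 4, a fit that called 8.91% of all genes, AMOTL2 was called higher, at 0.63 (edgeR adjusted p = 0.0273). Its difference was 0.54 in replicates 1 and 2 (edgeR adjusted p = 7.23e-08) and -0.34 in replicates 3 and 4 (0.934).

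**Figure D3:**
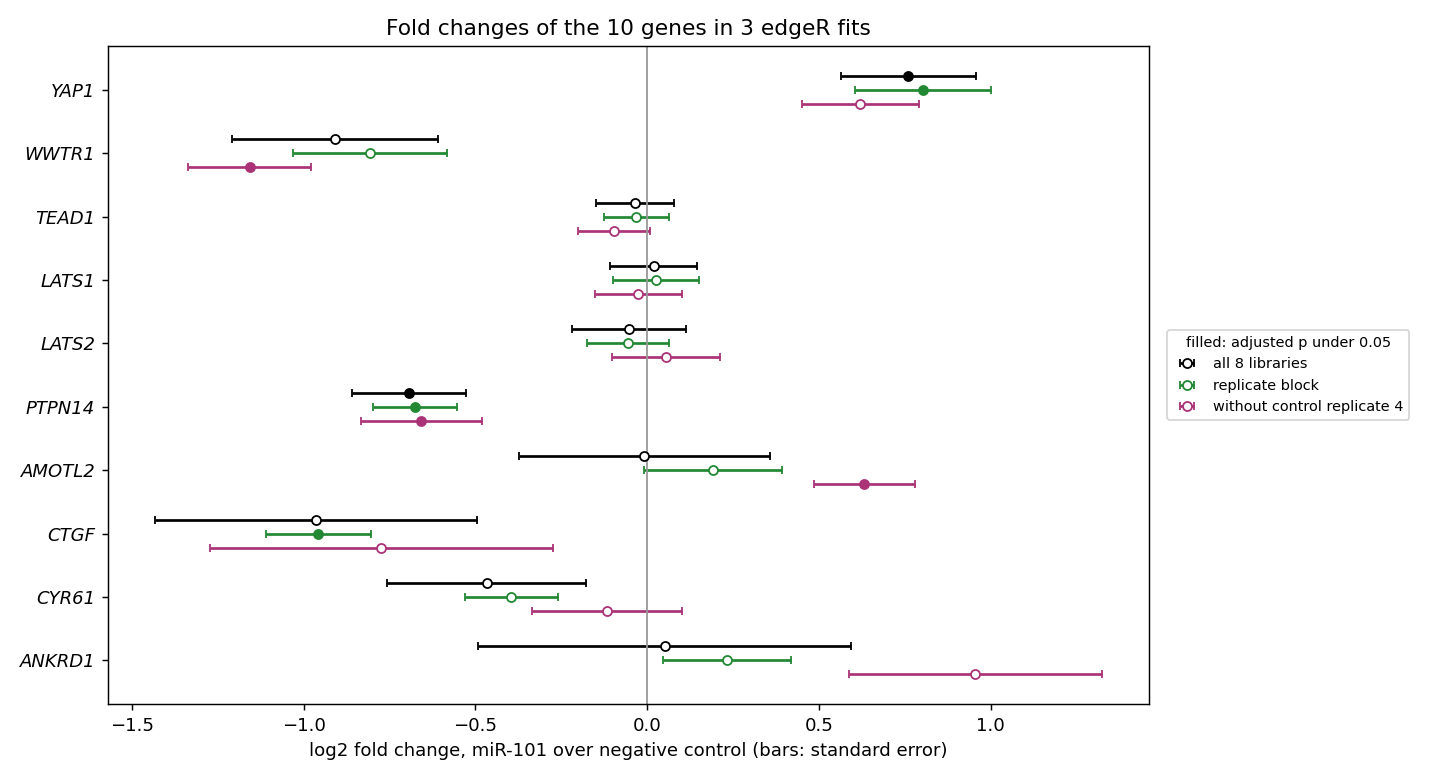
Log2 fold change, miR-101 over negative control, with its standard error (bars) for the 10 genes in edgeR fits of all 8 libraries (black), with the replicate number as a block (green) and without control replicate 4 (purple). Filled points have an adjusted p under 0.05. YAP1 and PTPN14 are filled in the fit of all libraries, CTGF only with the block, and WWTR1 and AMOTL2 only without control replicate 4.

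The 3 classical targets CTGF, CYR61 and ANKRD1 encode secreted matrix-associated proteins of the CCN family (CTGF, also named CCN2, and CYR61, also named CCN1) and a nuclear and sarcomeric ankyrin repeat protein (ANKRD1). Since TEAD factors act on such genes through the word CATTCC, the 250 bases before the RefSeq start site (GRCh38.p14) are shown for the members with more than 1 TEAD word. CATTCC and its reverse complement GGAATG are in capitals.
CTGF promoter: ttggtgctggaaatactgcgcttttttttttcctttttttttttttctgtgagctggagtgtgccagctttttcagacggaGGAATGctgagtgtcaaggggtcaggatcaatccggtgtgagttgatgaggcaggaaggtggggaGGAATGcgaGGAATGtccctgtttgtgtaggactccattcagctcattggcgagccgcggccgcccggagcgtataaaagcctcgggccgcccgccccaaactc
ANKRD1 promoter: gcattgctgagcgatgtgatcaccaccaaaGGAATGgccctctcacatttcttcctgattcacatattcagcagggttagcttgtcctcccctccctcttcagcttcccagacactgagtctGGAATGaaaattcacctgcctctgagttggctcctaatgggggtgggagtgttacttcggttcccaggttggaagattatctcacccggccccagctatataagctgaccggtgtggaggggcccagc
These are chr6:131951373-131951622 and chr10:90921088-90921337, both on the minus strand. The word was found 3 times for CTGF and 2 times for ANKRD1, with no overlap between matches. Of 35093 RefSeq promoter windows of the same length, 0.0826% held 3 or more, 0.94% held 2 or more and 11.9% held at least 1, counting both strands. YAP1, PTPN14 and 1 of 2 start sites of AMOTL2 held 1 each, and WWTR1, LATS1 and LATS2 held none. The CArG box bound by SRF was in none of the windows of these 8 genes and in 1.16% of all windows. TEAD1 and CYR61 were not matched to the promoter table.

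CTGF (chr6:131948176-131951373) stood at 20.8, 16.3, 39.0 and 61.3 CPM in miR-101 replicates 1 to 4 and at 33.9, 34.3, 108 and 91.5 CPM in the control replicates. In both groups replicates 3 and 4 were far above replicates 1 and 2, by 2.70-fold with miR-101 and 2.93-fold in the control. Within each same-numbered pair CTGF was lower with miR-101, by -0.70, -1.07, -1.47 and -0.58 on the log2 scale. The labels do not say that libraries of the same number share an experiment. The fit without pairing gave -0.96 ± 0.469 (edgeR adjusted p = 0.259) and the fit with the replicate block -0.96 ± 0.152 (edgeR adjusted p = 0.00766), the same size with a smaller error. With the block and the counts of replicates 1 and 2 summed to 1 sample, CTGF was not called (edgeR adjusted p = 0.0562). Replicates 1 and 2 alone gave -0.89 (edgeR adjusted p = 2.5e-12) and replicates 3 and 4 alone -0.99 (0.33). Its 3' UTR held no site of the 3 classes.

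CYR61 (chr1:85580761-85583962) stood at 38.6, 36.8, 39.8 and 62.3 CPM in miR-101 replicates 1 to 4 and at 38.5, 42.2, 63.8 and 100.9 CPM in the control replicates. Replicates 1 and 2 were alike in both groups (log2 fold change -0.10), and controls 3 and 4 were both above miR-101 replicates 3 and 4 (-0.69 for the 2 together). Over all libraries the log2 fold change was -0.47 ± 0.29, not called without the block (edgeR adjusted p = 0.377) or with it (0.109). Without control replicate 4 it was -0.12. Whether replicates 3 and 4 differ from 1 and 2 in their response was not tested.

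ANKRD1 (chr10:90912096-90921276) stood at 53.5, 48.8, 28.2 and 113 CPM in miR-101 replicates 1 to 4 and at 32.1, 30.9, 31.0 and 140.2 CPM in the control replicates. Replicate 4 was the highest library in both groups. ANKRD1 was higher with miR-101 in pairs 1 and 2 and lower in pairs 3 and 4, and the log2 fold change over all libraries was 0.05 ± 0.543 (edgeR adjusted p = 0.972). It was 0.69 in replicates 1 and 2 (edgeR adjusted p = 1.22e-10) and -0.28 in replicates 3 and 4 (0.966). Thus CTGF lay below the control in 4 of 4 pairs, CYR61 in 3 and ANKRD1 in 2.

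The spread between libraries of the same group was often as large as the difference between groups. In the control group the highest library exceeded the lowest 4.54-fold for ANKRD1, 3.47-fold for WWTR1, 3.47-fold for AMOTL2, 3.19-fold for CTGF and 2.62-fold for CYR61, but 1.38-fold for LATS2, 1.35-fold for LATS1 and 1.33-fold for TEAD1. Control replicate 4 was 4.48-fold above the mean of the other controls for ANKRD1, 3.23-fold for AMOTL2, 2.10-fold for CYR61 and 1.56-fold for CTGF. In the same library WWTR1 and YAP1 stood at 0.366 and 0.631 of that mean. Other described targets differed from each other there. CCDC80 stood at 0.774, NT5E at 0.824, PTPN14 at 1.10, TGFB2 at 1.37 and AXL at 3.25 of the mean of the other controls. CTGF was highest in control replicate 3. In miR-101 replicate 4 ANKRD1, AMOTL2, CYR61 and CTGF were also higher than in the other miR-101 libraries, by 1.45-fold (AMOTL2) to 2.59-fold (ANKRD1). YAP1 stood there at 1.26 and WWTR1 at 0.927 of the mean of the others. The library totals were 20022103 reads for miR-101 replicate 4 and 19644320 for control replicate 4, within the range of 17603054 to 20160267 over all 8 libraries.

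Per kilobase of exon, the levels in control cells ran from WWTR1 at 59.7 ± 26.3 CPM per kb, through ANKRD1 at 29.6 ± 27.5, CTGF at 28.6 ± 16.5, CYR61 at 25.0 ± 11.7 and YAP1 at 23.1 ± 7.32, to AMOTL2 at 12.6 ± 9.02 and TEAD1 at 11.5 ± 1.42 (SD, n = 4). Below these came PTPN14 at 6.08 ± 1.38, LATS1 at 4.59 ± 0.703 and LATS2 at 2.17 ± 0.327 CPM per kb. The ranges of neighbours in this order overlapped over the control libraries, except those of TEAD1 and PTPN14 and those of LATS1 and LATS2. PTPN14 lay above LATS1 within each control library, though their ranges overlapped. With miR-101 the order began with YAP1 at 39.2 ± 4.94 CPM per kb, followed by WWTR1 at 31.8 ± 6.29 and ANKRD1 at 30.7 ± 18.3.

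Other genes of the pathway were read from the same fit. These lists were chosen with earlier results of these data known, so their counts are descriptions. Among 25 tested upstream regulators of the cascade 3 rose and none fell by edgeR, against 3.3% higher and 3.32% lower of all tested genes. Of the 25, 8 had an unadjusted p under 0.05, as did 22.3% of all tested genes, and the median log2 fold change was 0.08. FAT4, an atypical cadherin, had 16.1 ± 4.23 CPM after the mimic against 6.18 ± 0.781 CPM in control cells (log2 fold change 1.38 ± 0.202, edgeR adjusted p = 0.00352). WWC2, a scaffold of the KIBRA family that activates LATS kinases, rose by 0.54 ± 0.108 (edgeR adjusted p = 0.0145). FRMD6, a FERM domain protein of the same branch, rose by 0.52 ± 0.0968 (edgeR adjusted p = 0.0106). The groups of these 3 genes did not overlap, which held for 5 of the 25 regulators and for 15.1% of all tested genes. The call of WWC2 ended when miR-101 replicate 1 was left out, or either of control replicates 1 and 2 (highest edgeR adjusted p 0.0565). With replicates 1 and 2 summed FRMD6 (0.103) and WWC2 (0.14) were not called, and FAT4 was (0.0469). With the block, where 10.5% of all tested genes were called, NF2 and AMOTL1 were called lower as well. Neither was called with the block on the summed replicates (edgeR adjusted p = 0.0786 and 0.174). NF2 encodes Merlin, a membrane-associated activator of the cascade, and ran from 49.5 to 74.5 CPM in miR-101 libraries and from 83.3 to 180 CPM in the control (-0.81 ± 0.137 with the block, edgeR adjusted p = 0.00987, against 0.069 without). NF2 and AMOTL1 were singled out after their values were seen.

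Among 14 tested genes of the kinase cassette around LATS1 and LATS2, none was called by edgeR, against 6.62% of all tested genes. Of the 14, 6 had an unadjusted p under 0.05, against 22.3% of all tested genes, and the median was -0.11. DESeq2 called 3 of them, against 10.7% of all tested genes, and limma-voom called 1, with 1059 called over all genes. The smallest p was that of MOB1A, a coactivator of LATS kinases, whose level was 352 ± 20.8 CPM after the miR-101 mimic against 272 ± 24.9 CPM in the control (0.37 ± 0.10, edgeR adjusted p = 0.0532, 0.0375 with the block, 0.177 with the block on summed replicates 1 and 2, and 0.0293 without control replicate 3). Of 6 tested TEAD paralogs and VGLL cofactors none was called by edgeR, DESeq2 or limma-voom, which is near these shares for a list of 6. An unadjusted p under 0.05 was found for 1 of the 6, against 22.3% of all tested genes. That gene was VGLL2, at 1.04 CPM (miR-101) and 0.571 CPM (control) (0.85 ± 0.374, edgeR adjusted p = 0.21).

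Of 16 other described YAP targets 2 rose and 1 fell by edgeR, which called 6.62% of all tested genes, 3.3% higher and 3.32% lower. This list too was chosen with earlier results of these data known. Their log2 fold changes were positive for 9 and negative for 7, with a median of 0.03. CCDC80, a secreted matrix protein, had 85.9 ± 2.23 CPM after the mimic against 19.9 ± 3.37 CPM in control cells (2.11 ± 0.128, edgeR adjusted p = 4.12e-05). TGFB2, a TGF-beta ligand, stood at 34.9 ± 6.75 and 13.9 ± 2.77 CPM (1.32 ± 0.182, edgeR adjusted p = 0.00253). NT5E, the ectonucleotidase CD73, fell by 0.51 ± 0.117 (edgeR adjusted p = 0.0278), a call lost without any 1 of miR-101 replicates 1 to 4 or control replicates 1 and 2 (edgeR adjusted p up to 0.0857) and with replicates 1 and 2 summed (0.168). With the block, where 10.5% of all tested genes were called, 4 of the 16 were called higher and 2 lower, which added IGFBP3, RBMS3 and AXL. Of these IGFBP3 was also called with the block on summed replicates 1 and 2 (edgeR adjusted p = 0.0289), and RBMS3 (0.131) and AXL (0.0872) were not. AXL, a receptor tyrosine kinase singled out after its values were seen, stood at 102, 99.9, 172 and 405 CPM in control replicates 1 to 4, so that control replicate 4 was high here too, and ran from 71.0 to 124 CPM with miR-101. The described targets therefore did not move in 1 direction.

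The 2 tested relatives of CTGF and CYR61 in the CCN family included NOV (CCN3), with 3.44 ± 0.896 CPM after the mimic against 6.47 ± 1.87 CPM in control cells, lower in 4 of 4 pairs. It was not called without the block (-0.92 ± 0.259, edgeR adjusted p = 0.0615) and was called lower with it (edgeR adjusted p = 0.00714) and without control replicate 3 (0.0206). DESeq2 called it (adjusted p = 0.0122), and the block on summed replicates 1 and 2 did not (edgeR adjusted p = 0.0593). Of 10 tested actin and SRF target genes, a set that shares targets with YAP, none was called by edgeR, DESeq2 or limma-voom. Over all tested genes edgeR called 6.62% and DESeq2 10.7%, so a list of 10 without a call is near that share. An unadjusted p under 0.05 was found for 1 of the 10, against 22.3% of all tested genes, and the median was 0.08. In replicates 1 and 2 only 6 of the 10 were called, where 5126 of all genes were. With the block without replicate 4 there were 5, where 3242 of all genes were called. The gene with the smallest p was ACTA2, smooth muscle actin, at 1.76 and 0.791 CPM (1.15 ± 0.434, edgeR adjusted p = 0.146). It was called only when miR-101 replicate 4 was left out, among the fits that left out 1 library (edgeR adjusted p = 0.0385).

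**Figure D4:**
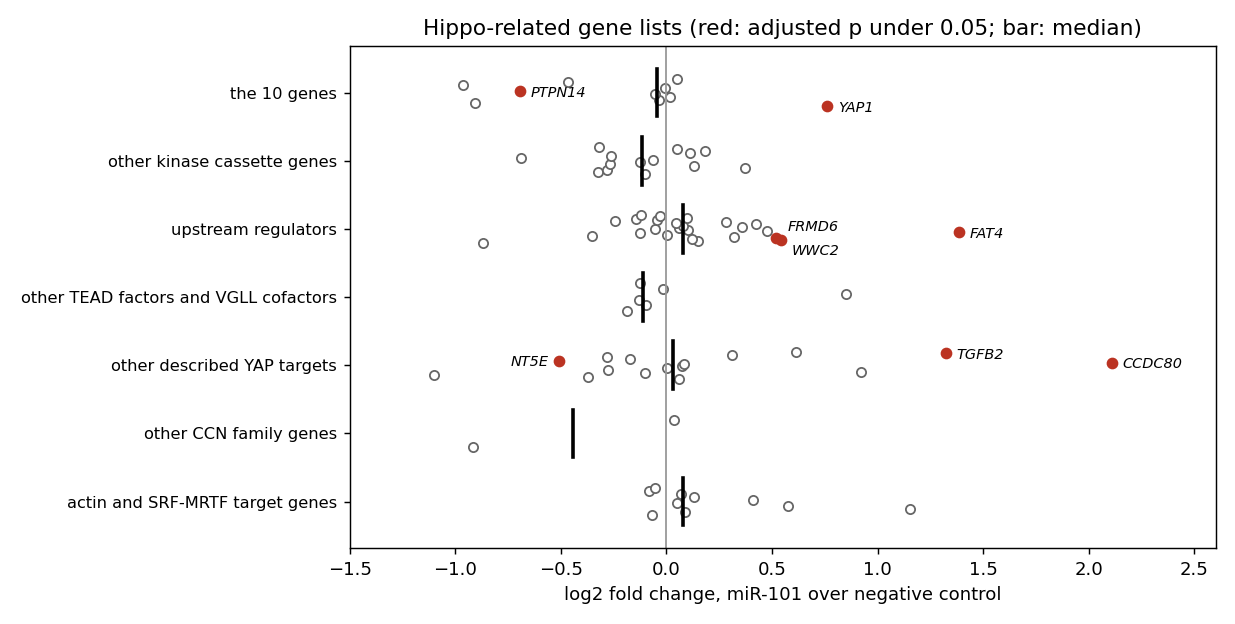
Log2 fold change, miR-101 over negative control, of each tested gene (points) in the 10 genes and in 6 other lists, with the median of each list as a black bar. Red points have an edgeR adjusted p under 0.05 and are named. The medians lie near 0 in every list but the CCN family, which has 2 tested genes.

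The genes whose log2 CPM over the 8 libraries was most like that of YAP1 were CACNA2D1, a calcium channel subunit (Pearson r = 0.991), and MIR17HG, the host transcript of the miR-17-92 cluster (r = 0.989). For PTPN14 they were TET3, a DNA demethylation enzyme (r = 0.985), and JMJD1C, a histone demethylase family member (r = 0.981). They were picked as the highest values among all tested genes over the same 8 libraries, which largely fixes the direction of their group difference, so these are descriptions with no test. Their log2 fold changes were 1.05 (CACNA2D1), 1.06 (MIR17HG), -0.43 (TET3) and -0.48 (JMJD1C).

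Facts of the whole table bear on these values. Replicates 1 and 2 lay closer to each other than to the other libraries in both groups, with an SD of log2 differences of 0.256 (miR-101) and 0.28 (control) against 0.356 to 0.62 for the other pairs. They still differed by more than sampling noise, with a chi-square per gene of 3.83 and 4.73. Control replicate 4 was far above the other 3 controls for 2.94% of tested genes and far below them for 1.35%. The mesenchymal transcripts VIM (at least 9473 reads in every library) and SPARC (at least 5216) were abundant, and the osteoblast factor RUNX2 was present (193 to 579 reads) and rose by 0.93 (edgeR adjusted p = 0.0269, a call lost with replicates 1 and 2 summed, 0.132, and when any of 5 single libraries was left out). The epithelial marker EPCAM had 93 to 314 reads and the endothelial marker PECAM1 16 to 72, and neither was called without the block. With the block EPCAM, SPARC and COL1A1 were called higher (edgeR adjusted p = 0.0115, 0.00977 and 0.00467). With the block on summed replicates 1 and 2 COL1A1 was called (0.0474), and EPCAM (0.0744) and SPARC (0.0907) were not, and their part in the values above was not tested. COL1A2, ALPL, CDH1 and PTPRC were also looked up by symbol but were not among the 15982 genes with counts.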

How the data were processed

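Per the labels and the values, the authors deposited whole-number read counts per gene symbol, not normalised, for 8 libraries. The labels name Ribo-zero Gold for the removal of ribosomal RNA. The submitters' processing notes name StringTie 1.2.4, TopHat2 2.0.14, bcl2fastq 2.18.0.12 and the build hg38. Not given in the sources used here are the counting tool, its annotation and whether it used strand, so reads of a gene and of one on the other strand cannot be told apart. Every column matched a labelled sample.

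Counts were tested with edgeR 4.0.16 (R 4.3.3, limma 3.58.1) by filterByExpr, TMM factors, glmQLFit and glmQLFTest, in a model of group alone, and p-values were adjusted by Benjamini-Hochberg over 15905 genes. The standard error is the log2 fold change divided by the square root of the F statistic. The fit was tested on simulated data. Same-numbered libraries deviated together from their group means (correlations over genes 0.328, 0.426, 0.185 and 0.209, each above 0.1), so the numbers were taken as pairs and the blocked fit is given where it changes a call. Some libraries of different number correlated as much: miR-101 replicate 4 with control replicate 3 (0.391), 2 with 1 (0.374) and 1 with 2 (0.372). The labels describe 4 transfection experiments but do not say that a number marks a shared one. The alternatives were RLE size factors, no filter, DESeq2 1.42.0, limma-voom, the block, leaving out each library, summing replicates 1 and 2, and either pair of replicates alone. Added after the data were seen were the block with replicates 1 and 2 summed and the block without replicate 4.

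The 10 genes and the other lists were chosen with earlier results of these data known. Named by rule were the 10 genes, the called genes of each other list (or the 1 with the smallest p), and the 2 genes most correlated with each called gene of the 10. Sites and exon lengths are from GENCODE 29.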

Additional observations from a re-analysis of the deposited data

Results flagged for a closer look

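The highest or lowest library of a group of 4 was compared with the others by Dixon's test on CPM. Tested were the genes named by rule, and AXL, NF2 and WWTR1-AS1, which were added after their values were seen. Of 58 groups 7 had a library far from the rest, 4 of them among the 20 groups of the 10 genes. Chance flags about 1 in 20 groups, and over all tested genes 7.43% of groups had such a library (6.66% of miR-101 and 8.2% of control groups). Control replicate 4 was far above the other controls for AMOTL2 (156.1 CPM), ANKRD1 (140.2 CPM) and NF2 (179.5 CPM). Control replicate 3 was far above the other controls for LATS1 (48.78 CPM) and WWC2 (46.24 CPM). miR-101 replicate 4 was far above the other miR-101 libraries for CYR61 (62.3 CPM), and miR-101 replicate 3 was far from the others for TET3 (11.94 CPM).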

How the results depend on the processing

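The count of all called genes (1053) was 1706 with DESeq2, 1676 with the replicate block, 173 with replicates 1 and 2 summed, 5126 in replicates 1 and 2 only, 6 in replicates 3 and 4 only, 330 with the block and replicates 1 and 2 summed, and 3242 with the block without replicate 4. Leaving out 1 library gave 488 to 1419. Of the 10 genes 2 were called, and 6 in replicates 1 and 2 only, 6 with the block without replicate 4 (YAP1, AMOTL2 and ANKRD1 higher, WWTR1, PTPN14 and CTGF lower in both), 1 with the block and replicates 1 and 2 summed (PTPN14), and 0 with replicates 1 and 2 summed or in replicates 3 and 4 only. Leaving out 1 library gave 0 to 3. YAP1, WWTR1, PTPN14, CTGF and CYR61 kept their sign in all 18 alternatives.

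Signs changed for genes near 0, and the cause was not tested. AMOTL2 became 0.18 with limma-voom, 0.19 with the replicate block, 0.54 in replicates 1 and 2 only, 0.075 with the block and replicates 1 and 2 summed and 0.48 with the block without replicate 4. Leaving out 1 library gave AMOTL2 -0.19 to 0.63, ANKRD1 -0.44 to 0.96, LATS1 -0.043 to 0.13, LATS2 -0.17 to 0.054 and TEAD1 -0.097 to 0.035. ANKRD1 was -0.0797 with replicates 1 and 2 summed and -0.28 in replicates 3 and 4 only. LATS1 was -0.00331 with replicates 1 and 2 summed, -0.041 in replicates 3 and 4 only and -0.071 with the block without replicate 4, and LATS2 was 0.015 in replicates 1 and 2 only. Depth was 17603054 reads or more per library, and whether depth or the number of cultures limits these values was not tested.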
